A study of Homo sapiens with 2 samples.

Results

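Nonadherent cells labelled with hashtag 0253 were compared with those labelled with hashtag 0252, gene by gene, over all cells and within fixed marker gates. A hashtag is an oligonucleotide-tagged antibody that marks all cells of a pool before pools are mixed and sequenced together. Cells were taken by the deposited hashtag call and were dropped above 36000 UMIs (unique molecular identifiers, each standing for 1 captured mRNA), above 6000 genes, or where the mitochondrial share of UMIs passed 18%. This left 4132 of the 7550 kept cells of the experiment, or 54.7%, of which 2136 carried hashtag 0252 and 1996 carried hashtag 0253. The other kept cells carried hashtag 0254 (1847 cells) or hashtag 0255 (1571 cells) and are given beside them.

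All 4 pools came from the same human iPSC line, iPS11, an established line made from foreskin fibroblasts. CD34+ cells made from it were plated on Uncoated, VCAM1, DLL4 or DLL4+VCAM1 wells and kept in medium for the endothelial-to-hematopoietic transition (EHT) for 5 days, and nonadherent cells of 3 wells per coating were pooled and stained with 1 hashtag antibody. The sources do not tie a hashtag to a coating, so the hashtags are called by number throughout. There was 1 pool per hashtag and 1 library, so the coating, the wells and the antibody behind a difference cannot be told apart. There was no replicate, and no p-value was computed. Intervals are 95% intervals that cover counting error only, and say nothing of how far 2 pools on the same coating would differ.

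In EHT, endothelial cells of the embryo turn into blood stem and progenitor cells, which then leave the endothelial layer. DLL4 is a ligand of the notch receptors, which steer this step and the later choice between lymphoid and myeloid fates, and VCAM1 is an adhesion molecule that binds integrins on blood cells. The nonadherent fraction of such a culture holds progenitors together with early macrophages, granulocyte precursors, erythroid cells and megakaryocytes. Macrophages take up dead cells and lipid, and they respond to interferons by switching on a shared set of antiviral genes.

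The hashtags differed little in depth. Their cells had a median of 18557 UMIs in hashtag 0252 and 18770 in hashtag 0253, with 13 and 12.9% of UMIs on mitochondrial genes. The filters removed 10.9% of the cells called for hashtag 0252 and 11.1% of those called for hashtag 0253. Summed over kept cells, the hashtags held 40416478 and 38464656 UMIs. Cells with more than 1 hashtag had been called doublets and were not used, but 2 cells from the same pool in a droplet cannot be found that way. The called hashtag had a median of 500.5 UMIs per cell in hashtag 0252 and 614 in hashtag 0253. The highest of the other hashtags had a median of 269 and 270.5 UMIs in the same cells. How many cells were called for the wrong hashtag was not tested.

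The 4 gates held similar shares of both hashtags. The CD34 GATA2 gate takes cells with at least 2 UMIs each of *CD34*, a surface marker of progenitors, and of *GATA2*, a transcription factor of the same cells. It held 537 cells (25.1%) of hashtag 0252 and 472 cells (23.6%) of hashtag 0253, a difference of -1.49 percentage points (interval -4.11 to 1.13). The C1Q gate takes cells with at least 10 UMIs of the complement genes *C1QA*, *C1QB* and *C1QC* together, which mark macrophages. It held 191 (8.94%) and 170 cells (8.52%), with an interval of the difference from -2.15 to 1.31 percentage points. The azurophil gate takes cells with at least 20 UMIs of the granule protease genes *ELANE*, *PRTN3* and *AZU1*. It held 368 (17.2%) and 367 cells (18.4%), against 104 (5.63%) and 66 cells (4.20%) in hashtags 0254 and 0255. The platelet chemokine gate takes cells with at least 10 UMIs of *PF4* and *PPBP*, and held 47 (2.20%) and 44 cells (2.20%), against 7 (0.379%) and 10 (0.637%) in hashtags 0254 and 0255. Over all kept cells, hashtags 0252 and 0253 were thus close to each other in all 4 gates. Both stood above the other hashtags in the azurophil and platelet chemokine gates. With cells under 1.5 times the smallest hashtag count of a call left out, the CD34 GATA2 difference was -4.68 percentage points, outside the interval above. Cells in no gate made up 1031 (48.3%) and 979 cells (49.0%).

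The gates were checked against other markers of the cells they are meant to hold. Levels are in CPM, a gene's UMIs divided by all gene UMIs of the same cells, times 1000000. *CSF1R*, the receptor of macrophage colony-stimulating factor, stood at 349 (hashtag 0252) and 268 CPM (hashtag 0253) in the C1Q gate, against 24.3 and 21.0 CPM in the CD34 GATA2 gate. *MPO*, the myeloperoxidase of azurophil granules, stood at 8621 and 7507 CPM in the azurophil gate, against 264 and 204 CPM in the CD34 GATA2 gate. The platelet chemokine gate rested on *PPBP*, since *PF4* had 53 UMIs in hashtag 0252 and 10 in hashtag 0253. Its cells also held erythroid RNA: 6 erythroid markers, globin genes among them, summed to 8595 and 7379 CPM there. The sum was 2593 and 2396 CPM for 5 megakaryocyte markers, of which 1 had no UMI in either hashtag. Longer lists lay closer. Erythroid and globin genes summed to 13373.5 and 12467 CPM, and megakaryocyte and platelet genes, with *PPBP* among them, to 10640 and 10347 CPM. The gate is therefore called by its genes and not by a cell type.

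Over all kept cells, the genes that were higher in hashtag 0253 included some macrophage genes, inflammatory chemokines and a few interferon-induced genes. Those that were lower included *CX3CR1*, *C3* and *ID3*. UMIs of each gene were summed over the cells of a hashtag and expressed as CPM, and the log2 ratio is that of hashtag 0253 over hashtag 0252. A gene was counted if both hashtags together held at least 200 UMIs and 10 CPM of it, and was called higher or lower if its ratio was at least 1.5-fold in that direction. Of 7865 genes counted, 34 (0.432%) were higher and 11 (0.14%) were lower in hashtag 0253, and the median log2 ratio of all genes was -0.01. Macrophage genes did not rise as a group. Of 25 macrophage and monocyte genes 12 were counted, of which 4 were higher and none was lower. Their median was 0.10, and 5 lay under 0. A set of 6 macrophage markers summed to 124 CPM in hashtag 0252 and 127 CPM in hashtag 0253. In summed counts, more cells with a gene and more RNA per cell cannot be told apart, so the share of cells with a UMI is given beside the levels.

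**Figure D1:**
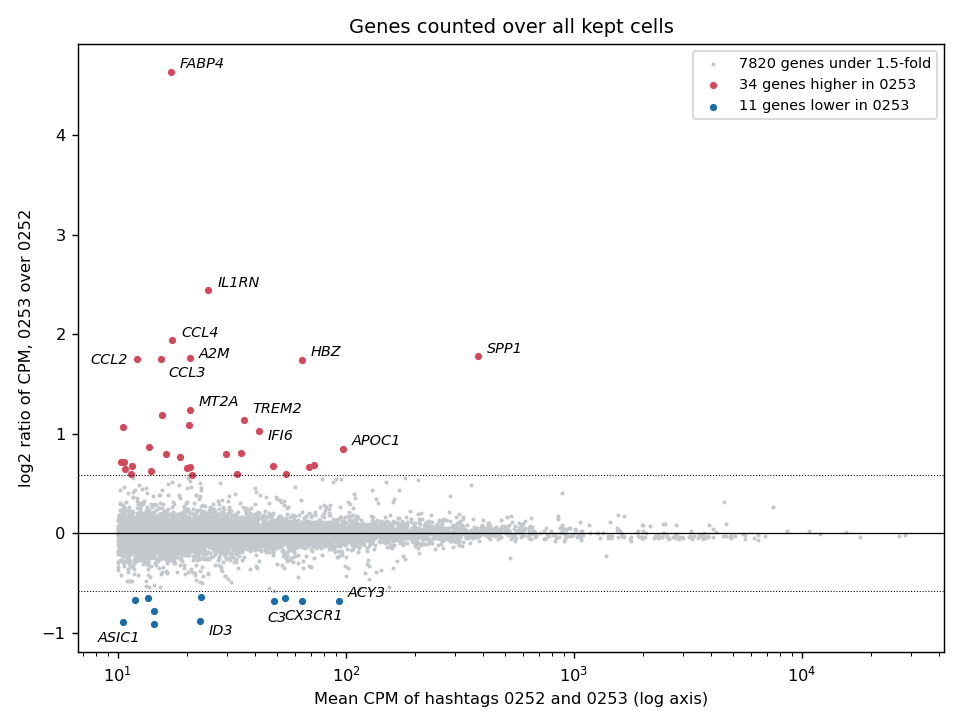
Ratio of hashtag 0253 to hashtag 0252 over all kept cells. Each point is 1 of 7865 genes, with its mean CPM on the x axis (log scale) and the log2 ratio of CPM on the y axis; dotted lines mark 1.5-fold. Most genes lie close to 0, 34 lie above the upper line and 11 below the lower line.

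*SPP1*, the gene of the secreted phosphoprotein osteopontin (ENSG00000118785, hg19 chromosome 4, 88896819 to 88904684, plus strand), was the most abundant of the genes that were higher. It stood at 171 CPM (interval 167 to 175) in hashtag 0252 and 586 CPM (578 to 593) in hashtag 0253, a log2 ratio of 1.78 (1.74 to 1.82). Hashtags 0254 and 0255 were close to hashtag 0252, at 153 and 150 CPM, so that hashtag 0253 stood alone. A UMI of *SPP1* was found in 21.4% of cells in hashtag 0252 and 23.7% in hashtag 0253. In CD34 GATA2 gate cells, with median depths of 21300 and 21404 UMIs, the shares were 19.2 and 15.9%. Cells that reached 10000 UMIs were also thinned to that depth. The shares were then 13.4 and 16.3% of kept cells, against 9.76 and 5.77% of CD34 GATA2 gate cells. The part of background RNA in these shares was not tested. The excess lay in few cells: 20 cells held 50% of the *SPP1* UMIs of hashtag 0253.

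*IL1RN* (ENSG00000136689, hg19 chromosome 2, 113856892 to 113891593, plus strand), which encodes the antagonist of the interleukin-1 receptor, stood at 7.74 CPM in hashtag 0252 and 42.1 CPM in hashtag 0253, with 14.4 and 13 CPM in hashtags 0254 and 0255. Its log2 ratio was 2.44 (2.27 to 2.62), and it was found in 8.85 and 14.3% of cells, against 2.05 and 1.69% in the CD34 GATA2 gate. *FABP4*, a fatty acid carrier of fat cells and macrophages, had the largest ratio of all, with 53 UMIs (1.31 CPM) in hashtag 0252 and 1259 UMIs (32.7 CPM) in hashtag 0253 (log2 ratio 4.64, 4.24 to 5.07). It was found in 0.702 and 2.20% of cells, and 3 cells held 50% of its UMIs in hashtag 0253. *A2M*, a broad protease inhibitor, stood at 9.43 and 32.0 CPM (log2 ratio 1.76) and was found in 5.29 and 11.7% of cells. *TREM2*, a lipid receptor of macrophages, stood at 22.3 and 48.9 CPM (1.14), with 17.7 and 25.9% of cells, and at 19.9 CPM in both other hashtags. For *IL1RN*, *A2M* and *TREM2*, hashtag 0253 again stood above the 3 others.

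Of 30 genes in a list of chemokines and their receptors, 6 were counted, of which 4 were higher and 1 was lower in hashtag 0253. *CCL4* stood at 7.18 and 27.5 CPM (log2 ratio 1.94), *CCL3* at 7.10 and 23.9 CPM (1.75) and *CCL2* at 5.54 and 18.7 CPM (1.75); these attract monocytes and other leukocytes. *CCR1*, a receptor for *CCL3*, stood at 6.78 and 14.2 CPM (1.07) and was found in 9.27 and 15.7% of cells. The *CCL3* and *CCL4* UMIs came from few cells, 50% of them from 7 and 4 cells in hashtag 0252 and from 6 and 4 cells in hashtag 0253, and both genes have near-identical copies that reads may be split between. *CCL4* stood at 26.5 CPM in hashtag 0254, next to the value of hashtag 0253. Further genes higher in hashtag 0253 were *APOC1*, an apolipoprotein, at 69.2 and 125 CPM (0.85), the lysosomal protease gene *CTSL* at 9.50 and 21.7 CPM (1.19), the metallothionein gene *MT2A* at 12.3 and 29.1 CPM (1.24) and *CHI3L1*, a secreted chitinase-like protein, at 13 and 27.8 CPM (1.09). The embryonic globin gene *HBZ* was higher as well, at 29.4 and 98.7 CPM, but 50% of its UMIs lay in 5 and 4 cells, it stood at 220 CPM in hashtag 0254, and its log2 ratio was 0.43 where cells with few hashtag UMIs were left out.

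Among the genes that were lower in hashtag 0253, *ID3* (ENSG00000117318, hg19 chromosome 1, 23884417 to 23885992, minus strand), an inhibitor of bHLH transcription factors, stood at 29.7 CPM (28.0 to 31.4) and 16.1 CPM (14.9 to 17.5), a log2 ratio of -0.88. It stood at 56.7 and 55.9 CPM in hashtags 0254 and 0255, so that both hashtags compared lay under the others. *ACY3*, an aminoacylase, stood at 114 and 71.2 CPM (-0.68), against 149 and 204 CPM. *CX3CR1*, the receptor of fractalkine on monocytes and macrophages (ENSG00000168329, hg19 chromosome 3, 39304986 to 39323226, minus strand), stood at 66.0 and 41.9 CPM (-0.65), was found in 36.7 and 28.6% of cells, and stood at 35.3 and 32.1 CPM in hashtags 0254 and 0255. *C3*, the central component of complement, stood at 59.7 and 37.4 CPM (-0.68), against 23.9 and 19.1 CPM. For *CX3CR1* and *C3* it was thus hashtag 0252 that lay above the rest. With cells of the lowest hashtag UMIs left out (a margin of 1.5 times the smallest call), the ratios of *ACY3* (-0.52), *C3* (-0.52) and *CX3CR1* (-0.51) fell short of the fold. Under that margin 6 of the 11 genes that were lower were still called, and 31 of the 34 that were higher. The other named genes that were lower were *ASIC1* (-0.89), *CSRP2* (-0.78), *CYP1B1* (-0.67), *HOPX* (-0.65), *MDFI* (-0.64) and the embryonic globin gene *HBE1*, which had 928 of its 3183 UMIs of hashtag 0252 in 1 cell and a ratio of 0.24 under the same margin.

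**Figure D2:**
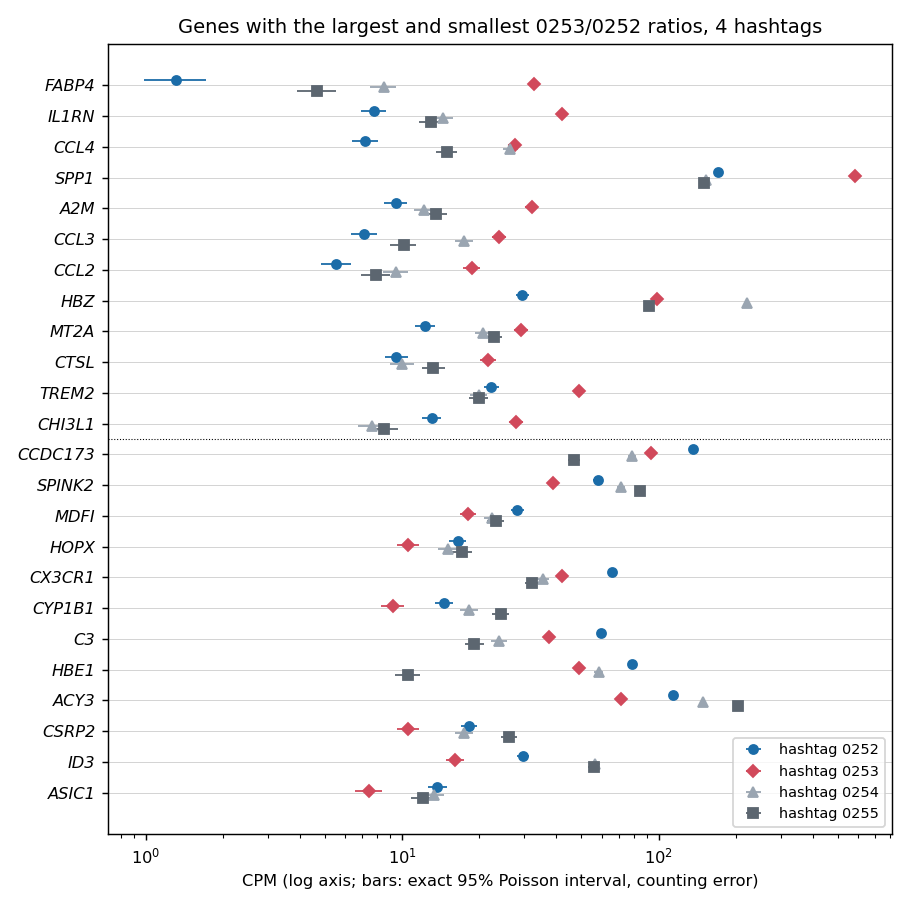
Levels of the 12 genes with the largest and the 12 with the smallest ratio over all kept cells, in CPM (log scale) in each of the 4 hashtags, with 95% counting intervals. *SPP1*, *IL1RN*, *A2M* and *TREM2* are high in hashtag 0253 alone, whereas *CX3CR1* and *C3* are high in hashtag 0252 alone.

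Set against hashtags 0254 and 0255, the 34 genes that were higher did not all set hashtag 0253 apart. For 19 of them both other hashtags lay nearer hashtag 0252, for 10 both lay nearer hashtag 0253, and for 5 they were split. Of the 11 genes that were lower, 7 had both other hashtags nearer hashtag 0252, 3 nearer hashtag 0253 and 1 was split. The other hashtags, compared in the same way, differed by a like number of genes: 24 were higher and 28 lower in hashtag 0255 than in hashtag 0254, of 7786 counted.

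The *SPP1* excess of hashtag 0253 came from cells with many *SPP1* UMIs, most of which lay outside the C1Q gate. Cells with at least 50 *SPP1* UMIs, a minimum chosen after the values were seen, numbered 22 in hashtag 0252 (1.03%, interval 0.647 to 1.56) and 78 in hashtag 0253 (3.91%, 3.10 to 4.85), a difference of 2.88 percentage points (1.95 to 3.88). Hashtag 0254 had 28 such cells (1.52%) and hashtag 0255 had 19 (1.21%). The cells so chosen held 80.0% of the *SPP1* UMIs in hashtag 0252 and 91.6% in hashtag 0253, shares that are partly set by the choice. With a minimum of 20 UMIs there were 39 and 112 cells, and with a minimum of 100 there were 18 and 57. In the C1Q gate their numbers were 19 and 29, and outside it 3 and 49.

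**Figure D3:**
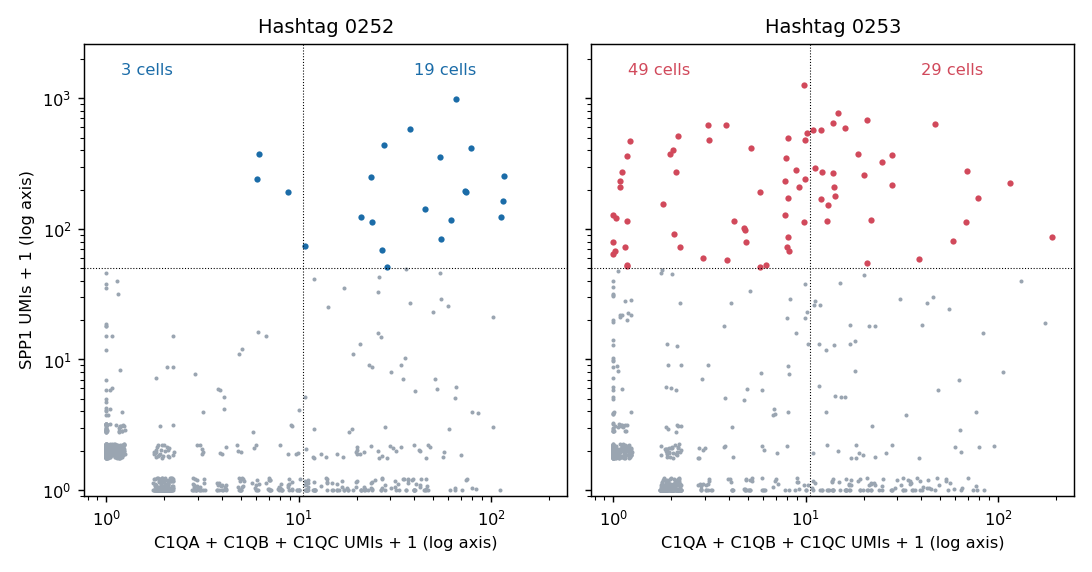
*SPP1* UMIs (y axis) against summed *C1QA*, *C1QB* and *C1QC* UMIs (x axis) in single cells of hashtags 0252 and 0253, with 1 and a small random shift added, both axes on a log scale, and lines at 50 *SPP1* UMIs and at 10 C1Q UMIs; cells with none of these UMIs are not drawn. Hashtag 0253 has 49 cells above the first line and left of the second, where hashtag 0252 has 3.

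The 49 cells of hashtag 0253 with at least 50 *SPP1* UMIs outside the C1Q gate carried other macrophage genes. They had *TREM2* in 93.9% of cells, *CSF1R* in 89.8%, *CD9* in 87.8% and *A2M* in 85.7%. *IL1RN* was found in 63.3% of them, at 752 CPM, and *FABP4* in 18.4%, at 708 CPM. *CD14*, a coreceptor for bacterial lipopolysaccharide, was found in 10.2%, and *CD163*, a hemoglobin scavenger receptor, had no UMI. The lack of a UMI in 49 cells does not limit how many such cells express *CD163*. It was found in 10.3% of the 29 such cells inside the gate, at 9.61 CPM. The C1Q genes of the 49 cells, held low by the gate's own rule, were present, with *C1QC* in 63.3% at 108 CPM. The 29 cells of hashtag 0253 inside the gate differed in having *CD14* in 44.8% of cells and *APOE*, a lipid carrier, at 1647 CPM against 414 CPM outside it. Progenitor genes were rare in the cells outside the gate, with *CD34* in 20.4% and *GATA2* in 14.3%, while *MPO* was found in 61.2%, against 75.6% of all kept cells of hashtag 0253. The median depth of the cells with at least 50 *SPP1* UMIs was 13076.5 UMIs in hashtag 0252 and 17238.5 in hashtag 0253, and the part of depth in their number was not tested.

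The cells with at least 50 *SPP1* UMIs held much of the RNA of some other genes that were higher. In hashtag 0253 they were 3.91% of kept cells. They held 55.3% of the UMIs of *FABP4*, 50.5% of *IL1RN*, 42.4% of *A2M*, 41.1% of *CHI3L1*, 40.7% of *CTSL* and 29.0% of *TREM2*. Of *IFI6* they held 15% and of *ISG15* 8.55%. In hashtag 0252 they were 1.03% of kept cells. There they held no UMI of *FABP4*, 4.15% of *IL1RN*, 46.2% of *A2M*, 8.92% of *CHI3L1*, 24.5% of *CTSL* and 20.9% of *TREM2*. Without them, the log2 ratio of *SPP1* was 0.57, that of *FABP4* 3.52, that of *IL1RN* 1.53 and that of *TREM2* 1.02, each under its value with them. The ratios of *A2M* (1.91), *CCL2* (2.03), *CCL3* (1.90) and *CCL4* (2.18) were instead above theirs. The number of genes higher was then 16 and all 16 were among the 34, while *SPP1* and *CHI3L1* (0.51) no longer passed. For *SPP1* this follows in part from choosing the cells by its UMIs.

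By the share of counted genes that were called, the C1Q gate differed most among the gates. The minimum of 200 UMIs stood for a higher CPM in gates with fewer UMIs, so that these shares are over unlike sets of genes. Its cells carried more RNA of interferon-induced genes, of S phase genes and of *LGALS3* in hashtag 0253, and less of *JAG1*, *C3*, *CX3CR1* and *ID3*. Of 3460 genes counted, 126 (3.64%) were higher and 54 (1.56%) were lower in hashtag 0253, with a median log2 ratio of 0.05 over all genes. The gate held 191 and 170 cells, and those of hashtag 0253 were deeper, with a median of 14579 UMIs against 11798. Each cell was therefore also thinned to 10000 UMIs, and thinned shares are given beside the shares in full data. These shares are over the 139 and 151 cells of the full-data gate that reached that depth. For gene counts and medians after thinning, each gate was applied again to the thinned UMIs, which makes it stricter. Such values thus differ from the full data in the cells taken as well as in depth. With the same minimum of UMIs per gene, 22 of the 126 genes higher and 8 of the 54 lower were still called after thinning.

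Most interferon-induced genes counted in the C1Q gate were higher in hashtag 0253. Of 40 interferon response genes in the list, 16 were counted and 13 were called higher, none lower, with a median log2 ratio of 0.80 against 0.05 for all genes. After thinning, 10 were counted and 8 were higher, with a median of 1.01. The genes that were not called were *IRF7* at 0.25, *TRIM22* at 0.24 and *IFITM2* at -0.27.

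*IFI6*, an interferon-induced protein that inhibits cell death, had the largest ratio. It stood at 98.2 CPM (86.6 to 111) in hashtag 0252 and 263 CPM (244 to 283) in hashtag 0253, with a log2 ratio of 1.42 (1.21 to 1.63), and at 204 and 197 CPM in hashtags 0254 and 0255. It was found in 42.4% of gate cells in hashtag 0252 and 79.4% in hashtag 0253, and after thinning in 36.0 and 64.9%. *ISG15*, a ubiquitin-like modifier, stood at 249 CPM (230 to 269) and 610 CPM (581 to 640), a log2 ratio of 1.29, against 525 and 536 CPM in the other hashtags, and was found in 61.9 and 86.8% of thinned cells. For both genes, hashtag 0252 lay under the 3 other hashtags. *OAS1*, which makes the activator of RNase L, stood at 21.6 and 53.8 CPM (1.32), and its thinned share was 12.2 and 36.4%. *MX1* and *MX2*, dynamin-like GTPases that restrict viruses, stood at 72.8 and 154 CPM (1.08) and at 25.0 and 54.9 CPM (1.13). *LY6E* stood at 199 and 395 CPM (0.99), and *IFITM3*, which blocks viral entry and shares sequence with *IFITM2*, at 185 and 331 CPM (0.84). Others of the 13 were *IFI35* (0.80), *EPSTI1* (0.77), *XAF1* (0.75), *PARP14* (0.69) and *BST2* (0.63). Summed over the 40 genes, the list stood at 2143 CPM in hashtag 0252, 3554 in hashtag 0253, 3199 in hashtag 0254 and 3135 in hashtag 0255.

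Interferon-induced genes are bound through a short element of paired GAAA units, and the promoters of those that were higher were searched for it to show where it lies. The letters GAAANNGAAA (N, any base) were searched on both strands, with overlapping matches allowed, in a RefSeq promoter table (GRCh38.p14). Only the 250 bases before each start were searched, and the 50 bases after it were left out. Of 35116 promoters in the table, 3.02% held a match, and of its 27305 genes 3.71% had one in at least 1 promoter. Of the 13 genes, 10 were in the table and 7 of these had a match. Of the whole list of 40, called or not, 28 were in the table and 20 had a match. Among the 10, *OAS1*, *IFI35* and *XAF1* held none in these windows. A match is a description of the sequence and not a shown binding site. The stretches below are printed 5′ to 3′ on the strand of the gene, with the matched letters in capitals, for the genes with the 2 largest ratios among those with a match and for 2 genes with smaller ratios. Each was found once in hg19, *IFI6* at chr1:27998835-27998874 (minus strand, 171 to 132 bases before the start), *ISG15* at chr1:948749-948794 (plus strand, 128 to 83 bases before), *PARP14* at chr3:122399642-122399681 (plus strand, 44 to 5 bases before) and *BST2* at chr19:17516539-17516584 (minus strand, 145 to 100 bases before).
IFI6: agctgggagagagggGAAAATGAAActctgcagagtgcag
ISG15: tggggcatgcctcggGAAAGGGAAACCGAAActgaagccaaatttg
PARP14: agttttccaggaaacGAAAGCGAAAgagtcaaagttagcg
BST2: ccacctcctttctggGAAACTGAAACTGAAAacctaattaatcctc
In *ISG15* and *BST2* a further GAAA unit follows at the same spacing, giving 2 overlapping matches, while the *IFI6* and *PARP14* stretches hold 1. The *IFI6* promoter held 3 matches in the bases searched, of which the printed stretch shows 1. By the annotation used, the *ISG15* stretch lies inside the gene's span (936518 to 949920), and the 3 others lie upstream of their genes.

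Outside the C1Q gate the interferon response genes differed less, and *IFI6* was the member called in most groups of cells. Over all kept cells 17 were counted and 4 were higher (*IFI6*, *MX1*, *IFIT3* and *EPSTI1*), with a median of 0.26. In the CD34 GATA2 gate 11 were counted and 2 were higher (*IFI6* and *IRF1*, median 0.19). In the azurophil gate 2 of 11 were higher (*IFI6* and *ISG15*, median 0.30), in the platelet chemokine gate 1 of 4 (*ISG15*, 0.35) and in cells in no gate 1 of 17 (*IFI6*, 0.14). No member was called lower in any of the 6 groups. *IFI6* over all kept cells stood at 27.3 CPM in hashtag 0252, 55.6 in hashtag 0253, 56.7 in hashtag 0254 and 60.5 in hashtag 0255, so that hashtag 0252 was low and the 3 others were close together.

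**Figure D4:**
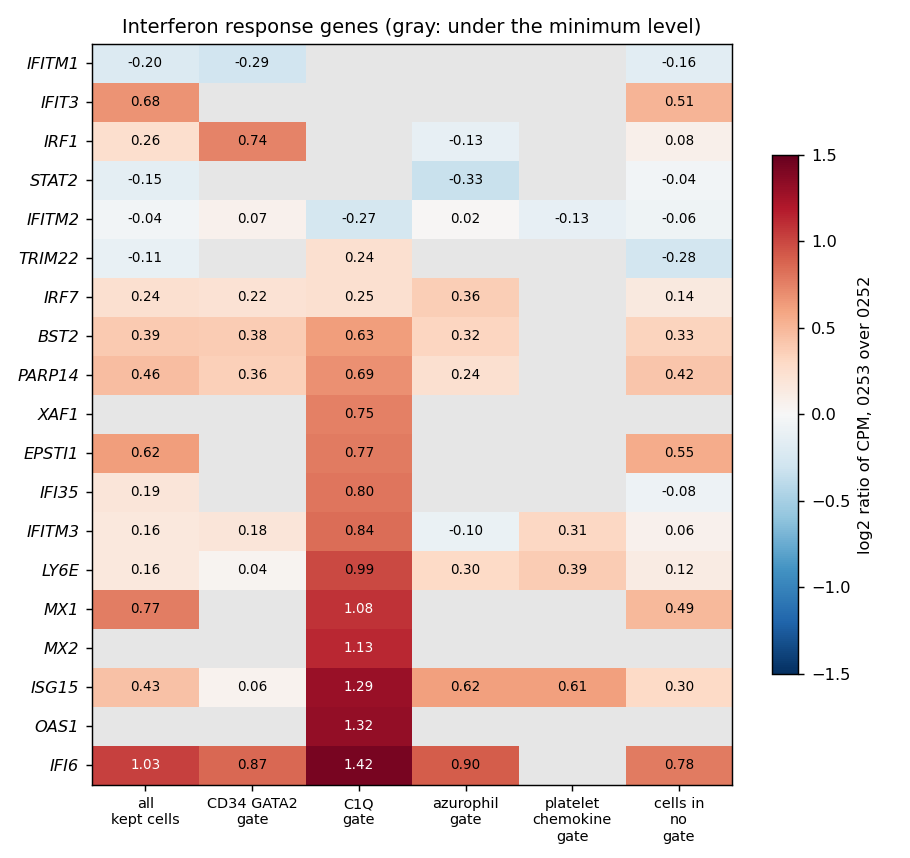
Log2 ratio of hashtag 0253 over hashtag 0252 for interferon response genes (rows) in all kept cells, the 4 gates and cells in no gate (columns). Gray fields are genes that were not counted in that group; 1 gene of the list is not drawn. The C1Q gate column shows 12 genes past 1.5-fold, and *IFI6* is past it in 3 of the 4 gates.

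The genes that were lower in the C1Q gate of hashtag 0253 included a notch ligand and complement and chemokine receptor genes. *JAG1*, which encodes the notch ligand jagged 1 (ENSG00000101384, hg19 chromosome 20, 10618332 to 10654647, minus strand), stood at 62.9 CPM (53.7 to 73.3) in hashtag 0252 and 19.2 CPM (14.3 to 25.1) in hashtag 0253, a log2 ratio of -1.72 (-2.19 to -1.26). It stood at 22.5 and 8.58 CPM in hashtags 0254 and 0255, so that hashtag 0252 was the high one. It was found in 41.4 and 20% of gate cells, in 34.5 and 17.9% after thinning, and in 0.375 and 1.28% of thinned CD34 GATA2 gate cells. *C3* stood at 354 and 123 CPM (-1.52), against 131 and 81.2 CPM in the other hashtags, and its thinned share was 80.6 and 58.3%. *CX3CR1* stood at 296 and 177 CPM (-0.74), against 154 and 125 CPM, with a thinned share of 82.7 and 57.6%. For all 3 genes the macrophages of hashtag 0252 stood above those of the other hashtags. *ACY3* stood at 209 and 69.3 CPM (-1.59) and *ID3* at 82.7 and 35.4 CPM (-1.22), while in hashtags 0254 and 0255 *ID3* stood at 93.2 and 80.1 CPM, near hashtag 0252. *CDKN1C*, an imprinted inhibitor of cyclin-dependent kinases, stood at 122 and 57.5 CPM (-1.08), and *KCNQ1OT1*, a noncoding RNA of the same imprinted domain, at 190 and 86.2 CPM (-1.14). *PRSS57*, a granule serine protease, stood at 83.4 and 36.9 CPM (-1.18). *TPM1*, also past the fold, had 112 of its 177 UMIs of hashtag 0252 in 1 cell.

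**Figure D5:**
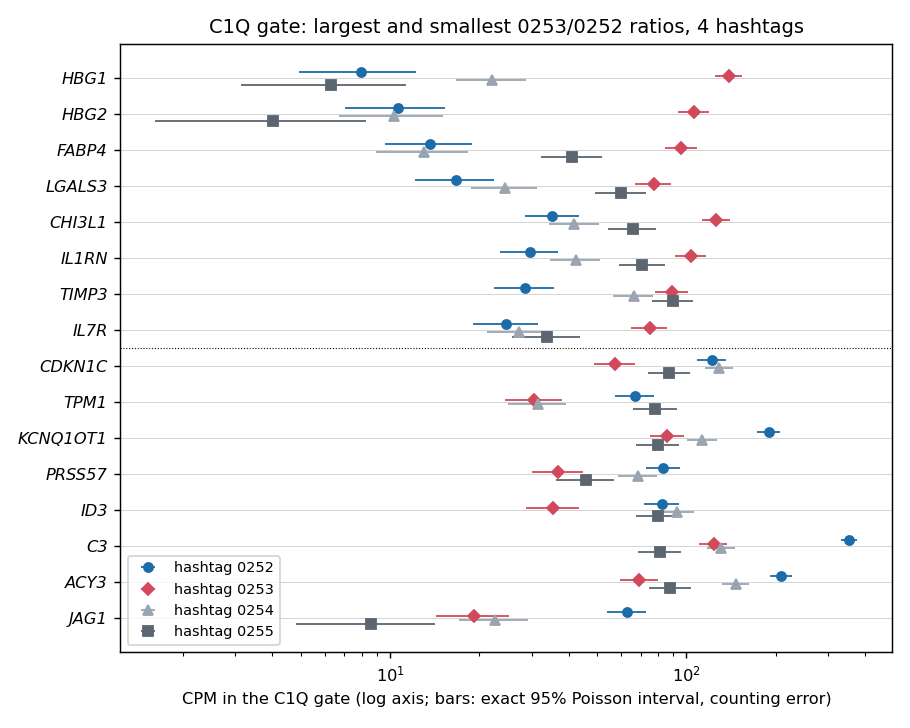
Levels in the C1Q gate, in CPM (log scale) with 95% counting intervals, of named genes in each of the 4 hashtags. The upper 8 genes are those with the largest and the lower 8 those with the smallest ratio. Hashtag 0252 is the highest of the 4 for *JAG1*, *C3*, *ACY3* and *KCNQ1OT1* and the lowest for *LGALS3*, *CHI3L1*, *IL1RN*, *TIMP3* and *IL7R*.

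Apart from interferon-induced genes, the genes that were higher in C1Q gate cells of hashtag 0253 included *LGALS3*, which encodes the lectin galectin-3. It stood at 16.7 CPM (12.1 to 22.4) and 77.4 CPM (67.3 to 88.6), a log2 ratio of 2.21, against 24.5 and 60.1 CPM in hashtags 0254 and 0255, and was found in 11.5 and 35.9% of cells (10.1 and 27.8% after thinning). *CHI3L1* stood at 35.3 and 126 CPM (1.83), *IL1RN* at 29.6 and 103 CPM (1.80), *TIMP3*, an inhibitor of matrix proteases, at 28.4 and 89.2 CPM (1.65) and *IL7R*, the interleukin-7 receptor chain, at 24.6 and 75.2 CPM (1.61). *FABP4* stood at 13.6 and 95.8 CPM (2.81), with 50% of its UMIs in 1 cell in each hashtag. The fetal globin genes *HBG1* and *HBG2*, near-identical copies, had the largest and the second largest ratio (4.12 and 3.32), but in hashtag 0253 the highest cell held 242 of 377 *HBG1* UMIs and 239 of 287 *HBG2* UMIs. Without the 5 highest cells of each hashtag their ratios were -0.54 and -0.02.

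Of 25 macrophage and monocyte genes, 14 were counted in the C1Q gate, 4 were higher and 1 was lower, with a median of -0.11. Those higher were *APOC1* at 204 and 481 CPM (1.23), *APOE* at 371 and 647 CPM (0.80), *SPP1* (0.79) and *TREM2* (0.63), and the lower one was *MAF*, a macrophage transcription factor, at 124 and 74.4 CPM (-0.74). *CSF1R* stood at 349 and 268 CPM (-0.38) and *CD14* at 99.3 and 145 CPM (0.55), neither past the fold. The iron exporter gene *SLC40A1* (-1.08) and *HMOX1*, which degrades heme (-0.67), were lower, while *MT2A* was higher (1.05). None of the 10 HLA class II genes counted was called, but all 10 lay under 0, with a median of -0.42, as *HLA-DRA* at 1637 and 1186 CPM. After thinning, with the gate applied again, that median was -0.07.

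Of 29 S phase genes, 21 were counted in the C1Q gate, 11 were higher and none was lower, with a median of 0.59. Examples were *TK1*, thymidine kinase, at 37.9 and 80.7 CPM (1.09), *RRM2*, a subunit of ribonucleotide reductase, at 35.6 and 72.2 CPM (1.02), and *PCNA*, the sliding clamp of DNA polymerases, at 74.3 and 128 CPM (0.78). Of 30 G2 and M phase genes, 22 were counted and 5 were higher, with a median of 0.32. In the CD34 GATA2 gate and the azurophil gate none of the 27 S phase genes counted was called, and the medians were 0.09 and 0.07. After thinning, 4 S phase genes were counted in the C1Q gate, of which 1 was higher, with a median of 0.38, so that few remained to compare at equal depth.

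Some genes of the later neutrophil list and others were also higher in the C1Q gate cells of hashtag 0253. Of 20 later neutrophil genes, 7 were counted and 4 were higher: *S100A8* at 109 and 238 CPM (1.13), *MMP9* (1.07), *ANXA1* (0.97) and *S100A9* at 401 and 659 CPM (0.72). *LYZ*, lysozyme, stood at 277 and 573 CPM (1.05), and *CD52* at 271 and 559 CPM (1.04). The 6 neutrophil markers, all detected, summed to 808 and 1119 CPM, against 208 and 287 CPM in hashtags 0254 and 0255, and the 6 erythroid markers to 19.7 and 260 CPM. These 6 include *HBG1* and *HBG2*, whose highest cells in hashtag 0253 held 242 and 239 UMIs, so that the erythroid sum rested largely on few cells. The gate shared 9 cells of hashtag 0252 and 7 cells of hashtag 0253 with the azurophil gate. Without cells in more than 1 gate, 12 of 15 interferon response genes were higher, with a median of 0.78. The part of RNA from other cells in the genes above was not tested.

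In the CD34 GATA2 gate, the progenitors of both hashtags were close to each other. Of 7593 genes counted, 16 (0.211%) were higher and 11 (0.145%) were lower in hashtag 0253, with a median log2 ratio of -0.01. How many of these calls held varied with the setting. Without the 5 highest cells of each hashtag, 10 of the 16 and 8 of the 11 were still called. With a mitochondrial limit of 15%, 8 and 7 were. With cells of few hashtag UMIs left out, 6 of the 16 and 2 of the 11 were still called. After thinning, with the same minimum of UMIs per gene, 1 of the 16 and 1 of the 11 were. *IRF1*, an interferon-induced transcription factor, stood at 22.8 CPM (20.1 to 25.6) and 38.1 CPM (34.4 to 42.0), a log2 ratio of 0.74, and was found in 30.2 and 44.7% of cells (16.9 and 25.4% after thinning). Hashtags 0254 and 0255 stood at 36.6 and 41.7 CPM, close to hashtag 0253. With both gate minimums doubled, the ratio of *IRF1* was 0.42. *IFI6* stood at 17.8 and 32.5 CPM (0.87), with a thinned share of 16.7 and 22.9%. *SELP*, the P-selectin of platelets and endothelium, stood at 12.3 and 20.8 CPM (0.75), *CEBPE*, a granulocyte transcription factor, at 16.6 and 29.0 CPM (0.81) and *ALDH1A1*, a retinal dehydrogenase, at 9.90 and 16.3 CPM (0.72). Without cells in more than 1 gate, *CEBPE* was at 0.29, and without upper limits on UMIs and genes *SELP* was at 0.56.

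Among the genes that were lower in the CD34 GATA2 gate were *GDF3*, a growth factor of the TGF-beta family, at 14.2 and 7.16 CPM (-0.99), and *GNAI1*, an inhibitory G protein subunit, at 17.7 and 9.83 CPM (-0.85). *ACY3* (-0.74), *RETN* (-0.73), *F2RL2* (-0.66) and *SPRYD4* (-0.64) were lower as well. *PPBP* stood at 27.4 and 14.2 CPM (-0.95), with 138 of its 324 UMIs of hashtag 0252 in 1 cell. Without upper limits on UMIs and genes, *PPBP* was at 0.99 and *RETN* at 0.025. Globin genes were called in both directions (*HBZ* 1.02, *HBA1* 0.95, *HBG2* 0.66 and *HBE1* -1.37), and each had 50% of its UMIs in at most 4 cells of a hashtag. Of 31 stem and progenitor factors, 21 were counted and none was called, with a median of 0.01. *RUNX1*, the transcription factor that EHT requires, stood at 90.7 and 79.1 CPM (-0.20), *MECOM* at 22.3 and 24.1 CPM (0.11) and *MYB* at 45.6 and 58.9 CPM (0.37).

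In the azurophil gate, 4 of the 5 HLA class II genes counted were lower in hashtag 0253. Of the 6 eosinophil, mast and basophil genes counted 2 were higher, neither of them where cells with few hashtag UMIs were left out. Of 6729 genes counted, 12 (0.178%) were higher and 27 (0.401%) were lower. *CLC*, the Charcot-Leyden crystal protein of eosinophils and basophils, stood at 253 CPM (241 to 266) and 564 CPM (546 to 582), a log2 ratio of 1.15, against 705 and 619 CPM in hashtags 0254 and 0255. It was found in 14.4 and 18.8% of the gate's cells. Its ratio was 0.09 where cells with few hashtag UMIs were left out (the margin of 1.5 times), so that the difference rested on those cells. *PRG3*, a granule protein of eosinophils, stood at 243 and 394 CPM (0.70, and -0.79 under that margin), while *EPX*, eosinophil peroxidase, at 372 and 422 CPM (0.18) and *PRG2*, the major basic protein, at 105 and 134 CPM (0.35) did not pass the fold. *IFI6* stood at 14.1 and 26.3 CPM (0.90), was found in 14.1 and 25.3% of cells, and had values of 25.6 and 26.1 CPM in hashtags 0254 and 0255. *PLEKHO1*, an adaptor protein, stood at 23.7 and 42.0 CPM (0.83).

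Of 12 HLA class II genes, 5 were counted in the azurophil gate and 4 were lower, with a median of -1.24. *HLA-DRA* stood at 55.9 and 23.6 CPM (-1.24), *HLA-DPA1* at 26.9 and 9.55 CPM (-1.49), *HLA-DRB1* at 33.6 and 13.2 CPM (-1.35) and *HLA-DPB1* at 21.7 and 10.1 CPM (-1.10). Members of this family share sequence, so that reads may be split between them. In each of these genes, at most 14 cells held 50% of the UMIs of hashtag 0252. Without cells in more than 1 gate, 2 of them were counted, 1 was lower and the median was -0.43. Also lower were *HBD*, which had 77 of its 261 UMIs of hashtag 0252 in 1 cell, and 3 of 9 immediate early genes counted (*ZFP36* -0.79, *EGR1* -0.78 and *FOSB* -0.59), which answer acute stimulation. Of 18 azurophil granule genes, 14 were counted without the gate's own genes. None was called and 12 lay under 0, with a median of -0.10, as *MPO* at 8621 and 7507 CPM (-0.20). The gate genes *PRTN3* at 8767 and 9103 CPM (0.05) and *ELANE* at 205 and 139 CPM (-0.57) are partly set by the gate's rule, so that nothing is read from them.

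The platelet chemokine gate held 47 and 44 cells, so that its values rest on few cells. Of 1255 genes counted, 10 (0.797%) were higher and 15 (1.2%) were lower. *VIM*, the intermediate filament vimentin, stood at 71.7 CPM (55.6 to 91.0) and 159 CPM (133 to 187), a log2 ratio of 1.15, and *S100A11*, a calcium-binding protein, at 144 and 245 CPM (0.76, and 0.44 with the gate minimum doubled). *LMO4*, a LIM-only transcription cofactor, had the largest ratio (1.81), of which 0.57 was left without the 5 highest cells of each hashtag. *CCDC173* stood at 264 and 101 CPM (-1.39), *GYPE*, a glycophorin gene of red cells with close copies, at 153 and 74.7 CPM (-1.03) and *TUBA1C*, a tubulin, at 1136 and 627 CPM (-0.86, and -0.50 without the 5 highest cells). Of 26 megakaryocyte and platelet genes, 18 were counted, of which none was higher and 1 was lower (*MYL9* -0.97, and 0.42 without upper limits on UMIs and genes), with a median of 0.00. Of the erythroid and globin genes, 11 were counted, 1 was higher (*HBZ* 0.94, with 50% of its UMIs in 1 cell of each hashtag) and 1 was lower (*GYPE*), with a median of -0.20.

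Some macrophage and chemokine genes were higher among the cells in no gate of hashtag 0253. Of 25 macrophage and monocyte genes 11 were counted, of which 4 were higher and 0 were lower, with a median of 0.29. Of 30 chemokine and receptor genes 7 were counted, of which 4 were higher and 1 was lower. A set of 6 macrophage markers summed to 98.3 and 111 CPM. The cells in no gate are not separate from the cells with many *SPP1* UMIs. Of the 49 such cells of hashtag 0253 outside the C1Q gate, 47 lay in no gate. Of 7756 genes counted, 53 (0.683%) were higher and 27 (0.348%) were lower, and 29 of the 34 genes higher over all cells (85.3%) were among the 53. Without cells of at least 50 *SPP1* UMIs, 38 genes were higher, 34 of them among the 53. *SPP1* stood at 72.8 and 688 CPM (3.24), *IL1RN* at 5.02 and 58.6 CPM (3.55), *A2M* at 5.18 and 36.3 CPM (2.81), *CCL4* at 5.07 and 44.8 CPM (3.14) and *CCL2* at 3.68 and 24.8 CPM (2.76). *CCL4* was found in few of these cells, 1.05 and 3.44% after thinning. *TREM2* was found in 15.3 and 27.2% of these cells, against 4.66 and 5.51% in the CD34 GATA2 gate.

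Of 24 stem and progenitor factors counted among the cells in no gate, 3 were lower in hashtag 0253 and none was higher, with a median of -0.14. *HOXA9*, a homeobox gene of blood stem cells, stood at 14.8 CPM (13.1 to 16.6) and 6.45 CPM (5.35 to 7.72), a log2 ratio of -1.19, and was found in 16.7 and 8.38% of cells. *SPINK2*, a protease inhibitor of early progenitors, stood at 96.7 and 57.6 CPM (-0.75), against 95.6 and 108 CPM in hashtags 0254 and 0255. For *HOXA9* hashtag 0252 stood above the 3 others, and for *SPINK2* hashtag 0253 stood below them. The third was *CD34* (-0.76), a gate gene whose level in these cells is partly set by the rule that removed cells with both *CD34* and *GATA2*, so that nothing is read from it. Other genes that were lower were *CYP1B1* at 28.1 and 13.6 CPM (-1.05), *IGJ*, the joining chain of immunoglobulins, at 16.3 and 6.89 CPM (-1.24), and *IDO1*, which degrades tryptophan, at 15.9 and 8.73 CPM (-0.86). *CCDC80*, *ACTC1* and *HBE1* were lower too, but at most 3 cells of hashtag 0252 held 50% of their UMIs.

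Several groups of genes held no member past the fold over all kept cells, while others did. Of the interferon response genes 4 of 17 counted were higher, and of the T and lymphoid genes 1 of 10 counted was lower (*HOPX*). Of 20 notch targets 6 were counted, with a median of 0.04 and *HES1*, a transcriptional repressor that notch induces, at 20.8 CPM (19.4 to 22.3) and 25.2 CPM (23.7 to 26.9), a log2 ratio of 0.28. *HES1* stood at 32.5 and 36.3 CPM in hashtags 0254 and 0255, above both. Of 24 notch receptors, ligands and modifiers 14 were counted, with a median of -0.04, and none was called. Likewise none was called among 23 stem and progenitor factors (median -0.13), 12 genes of MHC class I and the immunoproteasome (0.11), 17 azurophil granule genes (-0.01), 27 S phase genes (0.08) and 13 genes of the mitochondrial genome (0.00). Of 26 integrin and adhesion genes counted, which include the binding partners of VCAM1, 2 were higher, *CD9* at 21.8 and 38.0 CPM (0.80) and *ITGB2*, the beta chain of leukocyte integrins, at 53.3 and 84.4 CPM (0.66). Without the cells of at least 50 *SPP1* UMIs, *CD9* was at 0.49 and *ITGB2* at 0.52, both short of the fold.

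Some genes were called in the same direction in more than 1 gate. The share of counted genes called in a gate was 0.178 to 3.64% for higher and 0.145 to 1.56% for lower. *IFI6* was higher in the CD34 GATA2, C1Q and azurophil gates, *ISG15* in the C1Q, azurophil and platelet chemokine gates, and *IL1RN* and *TREM2* in the C1Q and azurophil gates. *CDKN1C* was lower in the C1Q, azurophil and platelet chemokine gates and *ACY3* in the CD34 GATA2 and C1Q gates. Of the 126 genes higher in the C1Q gate, 20 (15.9%) were among the 34 higher over all cells, which is 58.8% of the 34. Of all genes counted, 3.64% were higher in the C1Q gate and 0.432% over all kept cells, which include the gate's cells.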

How the data were processed

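Single-cell RNA-seq libraries were made from nonadherent cells of day 5, with a hashtag antibody per coating. The authors deposited UMI counts per gene and hashtag for 10836 barcodes, not normalized, together with a hashtag call per barcode. The submitters' processing notes name Cell Ranger 6.0.1 and hg19. Here, called cells were filtered on UMIs, genes and mitochondrial share, counts were summed per hashtag and gate, and CPM, log2 ratios and intervals were computed in Python 3.11.15 with numpy 2.4.6, scipy 1.17.1 and pandas 2.3.3, and drawn with matplotlib 3.10.9. CPM intervals are exact Poisson, shares exact Clopper-Pearson, differences of shares Newcombe's and ratios exact conditional binomial intervals at the 95% level, for counting error only. Hashtag UMIs were not part of the totals. Sums of 40416478 and 38464656 UMIs put 3 UMIs at 0.0742 and 0.0780 CPM. edgeR 4.0.16 (R 4.3.3) gave TMM factors for an alternative. Doublets within a hashtag were not removed. Gene positions came from a GENCODE annotation on hg19.

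The genes named are the 12 with the largest and the 12 with the smallest ratio over all kept cells, the 8 of each in a gate, the members of the gene lists past 1.5-fold, the 2 most abundant members of each list and the gate genes, passing over clone-named genes. Genes of each gate were left out of that gate's counts. The values of 1 interferon response gene are not reported here, and it stays in the counts and sums of its list. *CSF1R*, *CD14*, *CD163*, *HES1*, *IRF7*, *TRIM22*, *RUNX1*, *MECOM*, *MYB*, *PRG2* and the genes given for cells with many *SPP1* UMIs or in a second group of cells were chosen after their values were seen. The members and the 33 gene lists (820 entries, of which 13 were not matched to the table) were chosen with earlier results of these data known. Counts were also simulated as Poisson draws around a mean shared by both hashtags, with some genes changed 2-fold up or down. All changed genes passed 1.5-fold over all kept cells and in each of the 4 gates, and at most 3 unchanged genes did. Cells in no gate were not simulated. The draws held no spread between cells or pools. They therefore check counting error only, and say nothing of calls that rest on few cells.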

Additional observations from a re-analysis of the deposited data

How the results depend on the processing

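No paired analysis was possible because each hashtag is 1 pool and no result comes from a test over replicates. Counts are given as higher and lower in hashtag 0253, over all kept cells (34 and 11 in the report), then the CD34 GATA2 (16 and 11), C1Q (126 and 54), azurophil (12 and 27) and platelet chemokine gates (10 and 15), then cells in no gate (53 and 27). At 1.3-fold they were 79 and 55, 75 and 85, 318 and 171, 75 and 196, 51 and 54, and 134 and 89. At 2-fold they were 14 and 0, 1 and 1, 30 and 11, 2 and 5, 2 and 3, and 21 and 7. With no CPM minimum and at least 20 UMIs they were 583 and 566, 325 and 477, 816 and 805, 282 and 609, 611 and 662, and 592 and 536. With a minimum of 50 CPM they were 6 and 3 over all cells, 3 and 1 in the CD34 GATA2 gate, 3 and 1 in the azurophil gate, and 10 and 6 in no gate.

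Thinning cells to 10000 UMIs left out 186 and 107 cells, and each gate was applied again to the thinned UMIs. The calls were 6 and 5 genes in the CD34 GATA2 gate and 44 and 19 in the C1Q gate. In the azurophil gate 9 were lower, and 1 and 7 were called in the platelet chemokine gate. The interferon median of the C1Q gate was then 1.01, against 0.80, and 1.12 with the gate minimum doubled, where 54 and 22 genes were called there and 5 were higher in the platelet chemokine gate. Only cells with at least 1.5 times the smallest hashtag count of a call left out 372 and 559 cells, gave 55 and 30 genes over all cells and 86 and 49 in no gate, moved the CD34 GATA2 share difference from -1.49 to -4.68 points, and moved the share of called genes that differed the same way between hashtags 0254 and 0255 from 47.4 to 77.2%. Totals without mitochondrial and ribosomal protein genes gave 24 lower genes over all cells, and 83 and 41 in no gate. A mitochondrial limit of 15% gave 17 lower genes over all cells and 9 in the platelet chemokine gate. No limit on UMIs and genes gave 5 lower in the CD34 GATA2 gate, 19 higher in the azurophil gate and 48 and 38 in the platelet chemokine gate, with an interferon median of 0.62 there against 0.35. TMM scaling gave 19 and per-cell CPM 20 higher genes in the azurophil gate. Leaving out cells in more than 1 gate gave 17 lower genes in the azurophil gate.

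Alternatives chosen after seeing the data left out cells with at least 50 *SPP1* UMIs (16 genes higher over all cells) or the 5 highest cells per gene and hashtag (23 genes lower in the platelet chemokine gate). Most reversals were globin genes. Without the 5 highest cells they were *HBZ* -0.70, *HBA1* -0.40 and *HBG2* -0.18 in the CD34 GATA2 gate, *HBG1* -0.54, *HBG2* -0.023 and *TPM1* 0.25 in the C1Q gate, *HBG2* -0.33 in the azurophil gate and *HBE1* 0.997 in no gate. Under the hashtag margin they were *HBE1* 0.24 over all cells, *HBZ* -1.65, *HBG2* -0.39 and *HBE1* 0.91 in the CD34 GATA2 gate and *PRG3* -0.79 in the azurophil gate. *HBE1* in the CD34 GATA2 gate was 3.68 with the minimum doubled and 0.56 without cells in more than 1 gate, where *HBG2* was -1.40 in the azurophil gate. With no limit on UMIs and genes, *PPBP* was 0.99 and *RETN* 0.025 in the CD34 GATA2 gate and *MYL9* 0.42 in the platelet chemokine gate. The cause of these moves was not tested. For named genes, 946 values stayed within the limit set, 173 moved and 19 reversed. Counting error limits genes near the minimum, and 1 pool per hashtag limits all results.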
